A study of Mus musculus with 4 samples.

Results

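The 10 genes described here encode the mechanotransduction channel of cochlear hair cells and the tip link that opens it: Tmc1, Tmc2, Tmie, Lhfpl5, Cib2, Tomt, Pcdh15, Cdh23, Ush1c and Ush1g. They were taken by name as the listed channel, tip link and upper tip link scaffold genes, and all 10 were found among the 37239 gene identifiers measured. Whole cochleae were dissected from mice at postnatal day 8, and total RNA was sequenced in 4 libraries. The 2 wild-type libraries (Ikzf2+/+) were compared with 2 libraries of littermates homozygous for the cello allele (Ikzf2cello/cello). Ikzf2 encodes helios, a DNA-binding zinc finger protein related to Ikaros and made by outer hair cells, and in cello a point mutation alters that protein. No other allele or treatment is named. The labels call the libraries biological duplicates and do not say whether a library held the RNA of 1 animal or of several, so the p-values measure the spread between these 4 libraries.

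Hair cells convert sound into current at the tips of their stereocilia. Each tip link is a filament of cadherin 23 above and protocadherin 15 below, and tension on it opens channels formed by TMC proteins together with TMIE, LHFPL5 and CIB2. In the cochlea Tmc2 is the TMC gene of the first postnatal days and Tmc1 that of the mature hair cell. Cadherin 23 is anchored at the upper end by harmonin, from Ush1c, and by the protein SANS, from Ush1g. Mutations in most of these genes cause deafness.

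The libraries held 42152616 to 49719984 counted alignments, of which 70.0% to 72.8% lay in annotated genes, and a single read was worth 0.0201 to 0.0237 CPM (counts scaled to the counted alignments of the library). Markers of the labelled tissue were present. Of the lists of general, outer and inner hair cell, supporting cell, epithelial, neuronal and Schwann cell genes, 0 genes were at 0 in all libraries. The libraries stood apart in other tissue. The summed level of 8 Schwann cell genes was 978 CPM in wild-type replicate 1 and 2541 CPM in replicate 2, against 3786 and 4635 CPM in cello. The summed level of 8 bone genes was 3065 CPM in cello replicate 1 and 1135 to 1633 CPM in the other 3 libraries. Ikzf2 itself stood at 22.9 and 18.5 CPM in the wild-type libraries, against 17.7 and 16.9 CPM in cello. A point mutation need not change the transcript level, so these values do not check the labels.

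All 10 genes had a lower mean level in cello, and for 9 of them both cello libraries lay below both wild-type libraries. Among the 25659 genes with a read in any library, 21.0% showed that order. Of the 10 genes, 9 reached 1 CPM in at least 2 libraries and were tested. Of these 9, 8 showed that order, beside 28.7% of all genes tested. On the log2(CPM + 0.5) scale the 9 differences, cello minus wild-type, ran from -0.82 to -0.26 with a median of -0.45, against a median of -0.03 over the 14721 genes tested. All 9 lay below 0, as did 56.6% of the genes tested. By limma, with Benjamini-Hochberg adjustment over all genes and a threshold of 0.05, 0 of the 9 genes passed, and percent called over all genes was 0.0% in each direction. At an unadjusted p under 0.05, 7 of the 9 were lower by limma, beside 6.47% of all genes tested, and 0 were higher, beside 4.42%. With edgeR on the recovered reads 0 of the 9 passed and 0.0% of all genes. With DESeq2 Tmc1 alone passed, where 0.589% of the 13579 genes with an adjusted p were called lower and 0.847% higher. RNA of a whole cochlea cannot tell fewer hair cells from less RNA per hair cell.

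**Figure D1:**
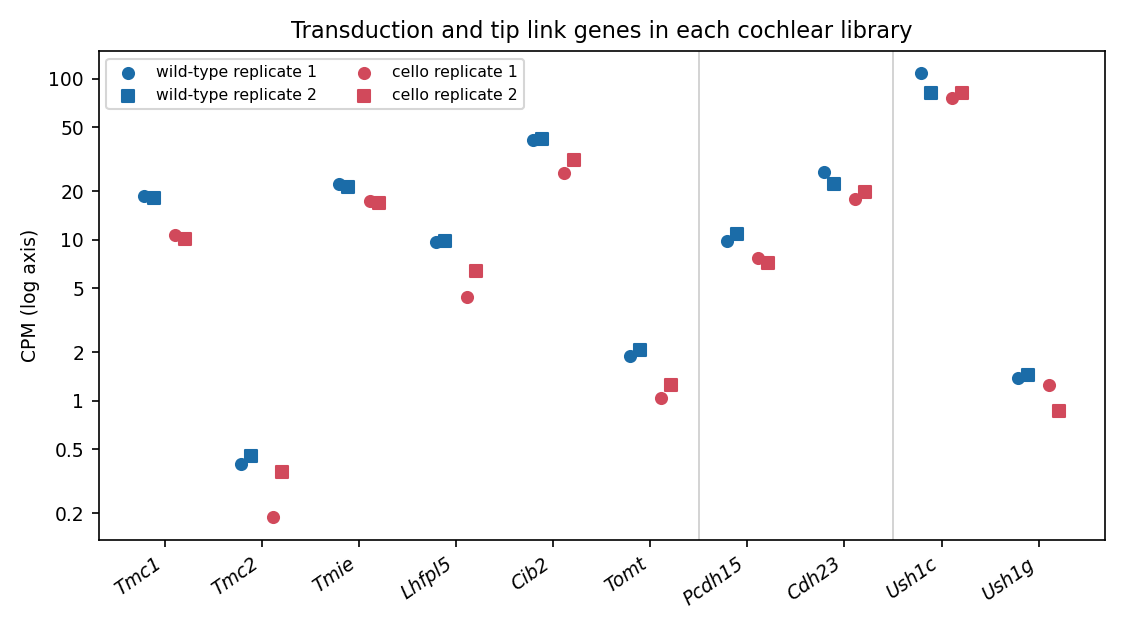
Level in CPM (log axis) of each of the 10 genes in the 4 libraries, wild-type in blue and cello in red, circles for replicate 1 and squares for replicate 2; grey lines part channel, tip link and scaffold genes. Both red points lie below both blue points for every gene except Ush1c, whose cello replicate 2 at 81.7 CPM is level with wild-type replicate 2 at 81.4 CPM.

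Among the channel genes, Tmc1, the pore-forming subunit of the mature channel (ENSMUSG00000024749, chromosome 19, 20783458 to 20954202 of GRCm38, minus strand), had the smallest p of the 9. Tmc1 stood at 18.7 and 18.2 CPM in the wild-type libraries, against 10.7 and 10.1 CPM in cello. The libraries of each genotype lay close together and the genotypes were well apart. The mean was 18.5 ± 0.312 CPM for wild-type, against 10.4 ± 0.395 CPM for cello (SD, n = 2), so that cello held 56.3% of the wild-type level. The log2 difference was -0.80 (SE 0.11, 95% interval -1.08 to -0.53). Its adjusted p was 0.419 in limma, 0.451 in edgeR and 0.00157 in DESeq2, so the call rested on the choice of tool.

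Lhfpl5 encodes the membrane protein that couples protocadherin 15 to the channel (ENSMUSG00000062252, chromosome 17, 28575641 to 28585679, plus strand). It stood at 9.71 and 9.80 CPM in the wild-type libraries, against 4.41 and 6.38 CPM in cello. The wild-type libraries were nearly equal, while cello replicate 1 was clearly the lowest. Its log2 difference was -0.82 (SE 0.20, 95% interval -1.33 to -0.31, limma adjusted p = 0.419), close to that of Tmc1. Without cello replicate 1 it was -0.58, beside -0.84 for Tmc1, and without cello replicate 2 it was -1.06, beside -0.76. Its mean in cello was 55.3% of that in wild-type.

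Cib2 encodes a calcium- and integrin-binding protein that attaches to the TMC proteins (ENSMUSG00000037493, chromosome 9, 54544794 to 54560218, minus strand). Cib2 stood at 41.5 and 42.2 CPM in the wild-type libraries, against 25.8 and 31.3 CPM in cello. As for Lhfpl5, the wild-type libraries were nearly equal and cello replicate 1 was the lowest. The means were 41.8 ± 0.498 and 28.6 ± 3.90 CPM (SD, n = 2), and the log2 difference was -0.55 (SE 0.12). The adjusted p was 0.419 in limma and 0.0552 in DESeq2.

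Tmie encodes a small membrane protein needed for the channel to work (ENSMUSG00000049555, chromosome 9, 110865711 to 110880113, minus strand). It differed least among the 5 channel genes tested. Tmie stood at 22.2 and 21.2 CPM in the wild-type libraries, against 17.3 and 17.0 CPM in cello. The groups did not overlap and the spread within each was small, but the cello mean was still 79.0% of the wild-type mean. The log2 difference was -0.33 (SE 0.10, 95% interval -0.58 to -0.09, limma adjusted p = 0.429). Of the Tmie exons, 7.89% by length overlap Als2cl on the opposite strand, which stood at 33.2, 25.6, 36.8 and 27.6 CPM.

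Tomt encodes a transmembrane O-methyltransferase that TMC1 needs to reach the hair bundle (ENSMUSG00000078630, chromosome 7, 101898370 to 101906359, minus strand). It was a low gene, at 1.89 and 2.06 CPM for wild-type, against 1.04 and 1.24 CPM for cello, from 94, 87, 44 and 59 reads. The genotypes did not overlap, and cello held 57.6% of the wild-type mean. The log2 difference of Tomt was -0.60 (SE 0.21, limma adjusted p = 0.441), which is understated by the pseudocount at this level. It was -0.75 in edgeR and in DESeq2. Of its exon length 69.3% overlaps Anapc15, a gene of the anaphase-promoting complex on the opposite strand. Without a stated strand setting, reads of that stretch cannot be assigned to either gene. Anapc15 stood the other way, at 2.84 and 2.66 CPM for wild-type, against 3.58 and 3.08 CPM for cello.

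Tmc2, the early postnatal TMC gene (ENSMUSG00000060332, chromosome 2, 130195194 to 130264445, plus strand), was close to the limit of detection. It had 20 and 19 reads in wild-type and 8 and 17 reads in cello, or 0.402, 0.451, 0.188 and 0.358 CPM. Each library lay above the limit that a count of 0 allows, 3 reads or 0.0603 to 0.0712 CPM (counting error only). Tmc2 missed the level filter. With no filter its difference was -0.27 (SE 0.15, limma adjusted p = 0.664), which is understated by the pseudocount at this level. A change of Tmc2 was not detectable at this depth.

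**Figure D2:**
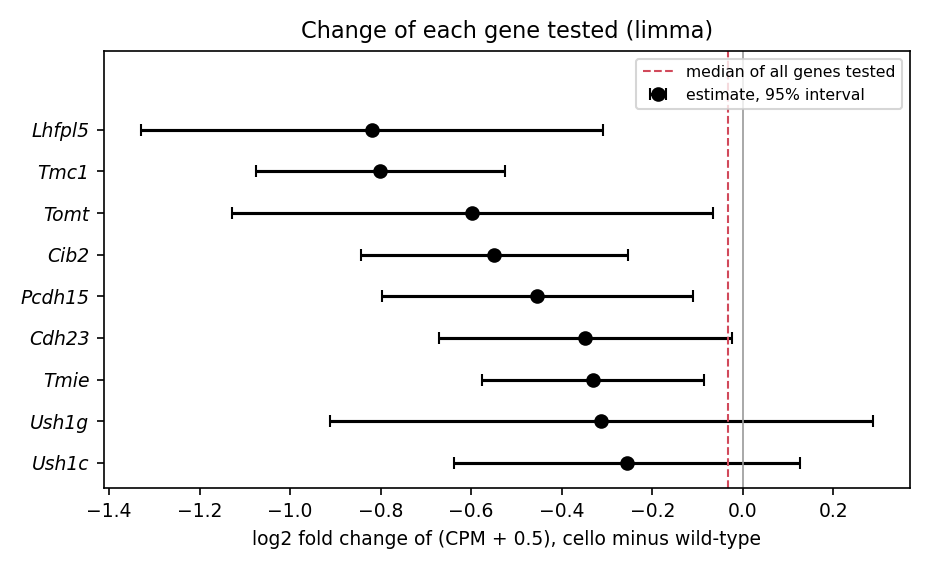
Log2 fold change of (CPM + 0.5), cello minus wild-type, with its 95% interval from limma for the 9 genes tested, ordered with the largest difference at the top; the grey line marks 0 and the dashed line the median of all genes tested, -0.03. Lhfpl5 (-0.82) and Tmc1 (-0.80) lie furthest from 0, and the intervals of Ush1c and Ush1g reach past 0.

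Helios binds DNA, so the promoters of these genes were searched for GGGAA, the core sequence bound by Ikaros family proteins. RefSeq promoters (GRCm38.p6) were found for 8 of the 10 genes, with 2 starts for Tomt. The search covered the 250 bases before each start on both strands (GGGAA or TTCCC). These starts do not always match the ends of the annotated gene spans. The Pcdh15 window, chr10:73821617-73821866, lies far inside its gene span, so the bases before the outermost annotated start were not searched. A later start of Tomt also lies inside its gene, and the windows of Lhfpl5, Tmie, Cib2 and Ush1c reach partly into their gene spans. The sequences of Tmc1 and Lhfpl5, which differed most in limma over all 4 libraries, and of Tmie, which differed least among the channel genes tested, are shown 5′ to 3′ on the strand of the gene, with the motif in capitals. The windows are chr19:20954203-20954452 (minus strand), chr17:28575469-28575718 (plus strand) and chr9:110880074-110880323 (minus strand).
Tmc1: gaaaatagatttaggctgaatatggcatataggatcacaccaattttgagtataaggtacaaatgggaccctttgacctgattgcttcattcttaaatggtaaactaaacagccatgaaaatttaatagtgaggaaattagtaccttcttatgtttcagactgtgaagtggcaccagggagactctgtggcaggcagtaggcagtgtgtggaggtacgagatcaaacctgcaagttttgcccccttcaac
Lhfpl5: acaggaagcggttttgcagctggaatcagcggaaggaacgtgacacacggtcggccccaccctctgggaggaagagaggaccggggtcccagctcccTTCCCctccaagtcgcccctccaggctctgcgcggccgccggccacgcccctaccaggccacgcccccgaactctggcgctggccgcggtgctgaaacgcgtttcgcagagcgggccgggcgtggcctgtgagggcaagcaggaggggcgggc
Tmie: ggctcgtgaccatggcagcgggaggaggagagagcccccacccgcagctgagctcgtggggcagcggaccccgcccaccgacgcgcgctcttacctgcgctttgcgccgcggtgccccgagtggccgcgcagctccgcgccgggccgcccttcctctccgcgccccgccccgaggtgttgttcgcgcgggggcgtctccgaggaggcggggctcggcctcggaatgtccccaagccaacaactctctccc
The motif was present in 1 of the 9 member promoters, that of Lhfpl5, where its TTCCC form starts 153 bases before the RefSeq transcription start. Of 32841 promoters of the same length, 56.2% held it. The longer form TGGGAA (or TTCCCA), which contains the first motif, was in 0 of the 9 and in 21.6% of all. A match is not a binding site, and a missing match says only that these letters are not in the window. The windows also differed in base composition, with 41.2% G and C for Tmc1, 70.8% for Lhfpl5 and 74.8% for Tmie.

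The genes of the tip link itself stood between Cib2 and Tmie in the size of the difference. Pcdh15 (ENSMUSG00000052613, chromosome 10, 73099342 to 74649737, plus strand), the lower strand of the link, stood at 9.84 and 10.9 CPM in the wild-type libraries, against 7.73 and 7.14 CPM in cello. The genotypes did not overlap. The log2 difference of Pcdh15 was -0.45 (SE 0.13, 95% interval -0.80 to -0.11, limma adjusted p = 0.429). Cdh23 (ENSMUSG00000012819, chromosome 10, 60302748 to 60696490, minus strand), the upper strand, stood at 26.3 and 22.1 CPM in the wild-type libraries, against 17.9 and 19.8 CPM in cello. Wild-type replicate 1 was the highest, and the gap between the nearest libraries of the 2 genotypes was small. The difference of Cdh23 was -0.35 (SE 0.13, limma adjusted p = 0.444), and it was -0.22 without wild-type replicate 1.

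The scaffold genes were the least separated. Ush1c, which encodes harmonin (ENSMUSG00000030838, chromosome 7, 46195350 to 46238503, minus strand), stood at 108.6 and 81.4 CPM for wild-type, against 75.8 and 81.7 CPM for cello. Only wild-type replicate 1 stood above the other libraries. Its log2 difference was -0.26 (SE 0.15, 95% interval -0.64 to 0.13, limma adjusted p = 0.558). Leaving out wild-type replicate 1 brought it to -0.05, and leaving out wild-type replicate 2 to -0.46. Ush1g, which encodes SANS (ENSMUSG00000045288, chromosome 11, 115315192 to 115322041, minus strand), stood at 1.39 and 1.45 CPM in the wild-type libraries, against 1.25 and 0.864 CPM in cello, from 69, 61, 53 and 41 reads. Cello replicate 2 was the lowest and cello replicate 1 lay close to wild-type. The difference of Ush1g was -0.31 (SE 0.24, limma adjusted p = 0.639), and -0.38 in edgeR, without the pseudocount of 0.5. The limma difference was -0.13 without cello replicate 2 and -0.49 without cello replicate 1.

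Of 8 ratios between these genes, taken on the log2(CPM + 0.5) scale, 5 did not overlap between the genotypes and 3 did. The 5 include Tomt to Tmc1, which overlapped in plain CPM. The share of all gene pairs that separate in this way was not counted. The log2 ratio of Tmc1 to Tmie was -0.24 and -0.21 in the wild-type libraries and -0.67 and -0.72 in cello, a difference of -0.47 with an SD within genotypes of 0.03. Tmc1 was thus lower relative to its partner Tmie in both cello libraries. The ratio of Lhfpl5 to Tmie moved by -0.49, with a wider SD of 0.26, and by -0.23 without cello replicate 1 and -0.75 without cello replicate 2. The ratio of Tmc1 to Pcdh15 moved by -0.35 (SD 0.09). That of Tmc1 to Cib2 moved by -0.25 (SD 0.18), by -0.43 without cello replicate 1 and by -0.08 without cello replicate 2. Between Tmc1 and Lhfpl5 the ratio overlapped between the genotypes, at 0.91 and 0.86 in wild-type and 1.19 and 0.62 in cello. That of Tomt to Tmc1 was higher on this scale in both cello libraries, by 0.20 on average (SD 0.14). The difference was 0.33 without cello replicate 1 and 0.08 without cello replicate 2. This separation rested on the added 0.5 at the low level of Tomt. In plain CPM the genotypes overlapped, and the difference was 0.08 with a pseudocount of 0.1 and 0.04 in edgeR. The ratios of Pcdh15 to Cdh23 (-0.11) and of Ush1c to Cdh23 (0.09) overlapped. The pairs were chosen with the levels known, and 2 against 2 libraries cannot go below an exact permutation p of 0.33, so the ratios are given as a description.

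Levels of different genes were compared per kb of annotated exon. In wild-type Cib2 stood highest at 29.2 ± 0.347 CPM per kb, followed by Ush1c at 24.7 ± 4.99, Tmie at 7.00 ± 0.234, Lhfpl5 at 4.09 ± 0.0247 and Tmc1 at 2.57 ± 0.0434 CPM per kb (SD, n = 2). Cdh23 at 1.43, Tomt at 0.692, Pcdh15 at 0.436, Ush1g at 0.429 and Tmc2 at 0.133 CPM per kb followed. The place of Tomt is uncertain, since reads of the 69.3% of its exon length that overlaps Anapc15 cannot be assigned. Pcdh15 and Ush1g overlapped in this order in both genotypes, and Cib2 and Ush1c overlapped in cello, where Ush1c stood first at 20.5 CPM per kb. The other neighbours in the wild-type order did not overlap within either genotype. Per kb, Tmc1 stood above Tmc2 in each library. Divided by the longest coding transcript instead, a choice made after seeing the data, Ush1c came before Cib2 in wild-type and Pcdh15, whose exon union of 23.8 kb is far longer than its longest coding transcript of 9.10 kb, came before Tomt.

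The transduction genes were next set against other hair cell genes of the same library. These did not move as 1 group. Of 9 general hair cell genes tested, 7 were below 0, beside 56.6% of all genes tested. In 6 of them both cello libraries lay under both wild-type libraries, beside 28.7%. The median of the 9 was -0.71, further from 0 than the -0.45 of the transduction genes. In limma 0 of the 9 passed and 6 were lower at an unadjusted p under 0.05, beside 6.47% of all genes tested. In DESeq2 1 passed, Pou4f3. Nearest to 0 were Myo7a and Myo6 of that list, myosin genes used by hair cells of both kinds. These and Otof, the otoferlin gene of the hair cell synapse, which is in the inner hair cell list here, did not pass in limma. Their differences were 0.04 (95% interval -0.46 to 0.55), -0.06 (-0.28 to 0.15) and 0.03 (-0.18 to 0.23). Relative to Otof, all 9 genes tested were lower in both cello libraries than in both wild-type libraries, with a median change of the log2 ratio of -0.48. Against Myo6 this held for 8 of 9 and against Myo7a for 7 of 9. How many of all genes tested show that order relative to these references was not counted, so the counts are a description. Myo7a differed between the cello libraries, at 21.0 and 14.2 CPM.

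Against other genes the direction of the ratios was different. Pou4f3, a transcription factor gene of all hair cells, stood at 27.2 and 27.8 CPM in the wild-type libraries, against 14.5 and 15.3 CPM in cello (-0.86, DESeq2 adjusted p = 1.39e-05, limma 0.419). Relative to Pou4f3 the ratios of Tmc1 and Lhfpl5 overlapped between genotypes, and with the pseudocount the other 7 genes were higher in both cello libraries. For Tomt this separation rested on the pseudocount at its low level. In plain CPM its ratio to Pou4f3 overlapped between genotypes too. Relative to Slc26a5, the prestin gene of outer hair cells, 8 of 9 were higher in cello, with a median change of 0.73. Such counts depend on the difference of the reference gene itself. That was -1.18 for Slc26a5 and -0.86 for Pou4f3, beside a median of -0.03 over all genes tested. The share of all genes in the same order was not counted for any reference gene. Relative to Epcam, a cell adhesion gene of epithelia in general, the median change was 0.01. Tmc1 (-0.33), Lhfpl5 (-0.35), Tomt (-0.13) and Cib2 (-0.08) were lower relative to Epcam in both cello libraries, and the other 5 overlapped. The value of Tomt is understated by the pseudocount at its low level.

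**Figure D3:**
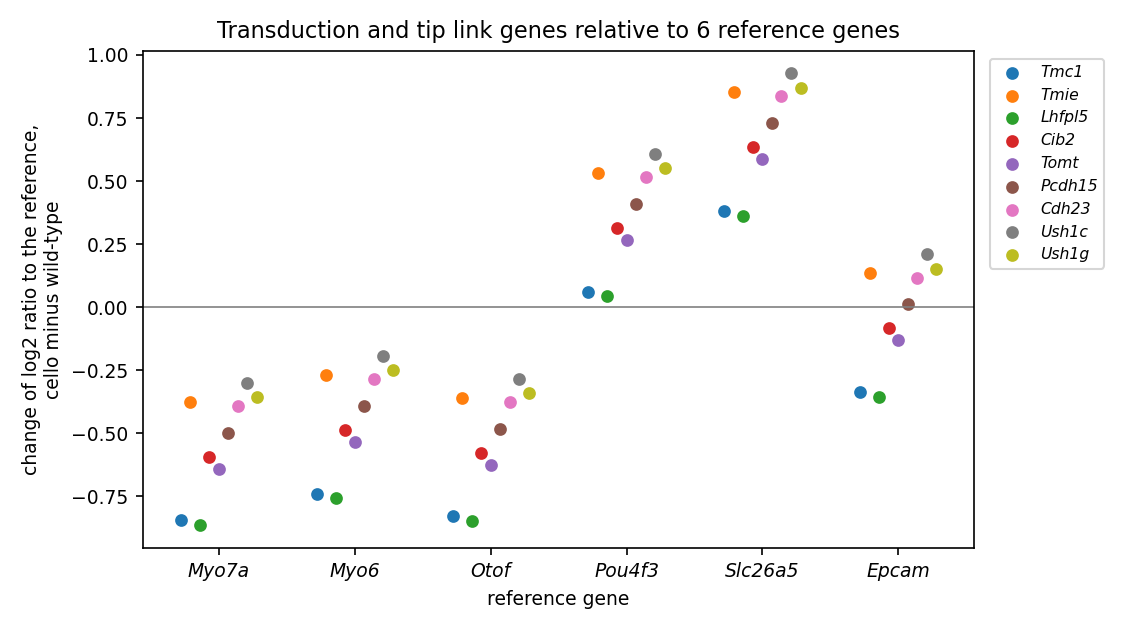
Change of the log2 ratio of each of the 9 genes tested to a reference gene (x axis), cello minus wild-type, on the log2(CPM + 0.5) scale; each point is the difference of 2 genotype means. All points lie below 0 against Myo7a, Myo6 and Otof and above 0 against Pou4f3 and Slc26a5, and against Epcam they lie on both sides around a median of 0.01.

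Several lists of markers of other cell types also differed between the wild-type and cello libraries, and their part in these results was not tested. Of all genes tested, 56.6% stood below 0. All 12 epithelial genes tested stood below 0, with a median of -0.40 beside -0.45 for the transduction genes. Their summed level was 1169 and 1255 CPM for wild-type, against 910 and 964 CPM for cello. The 10 outer hair cell genes all stood below 0 with a median of -0.33, and their sum was 480 to 488 CPM in wild-type and 306 to 326 CPM in cello. Ocm, the oncomodulin gene of outer hair cells, had the largest difference among them, at 116.0 and 107.5 CPM for wild-type, against 33.9 and 16.6 CPM for cello (-2.21, DESeq2 adjusted p = 0.00637, limma 0.419). The 6 inner hair cell genes had a median of -0.05, with 3 below and 3 above 0. Of 11 supporting cell genes 10 were below 0 (median -0.29), with sums of 2987 and 3098 CPM for wild-type, against 2547 and 2425 CPM for cello. All 8 genes of melanocytes and the stria vascularis were below 0 (median -0.38), with sums of 1967 and 2172 CPM, against 1577 and 1656 CPM. Schwann cell genes stood above 0 in 8 of 8 cases (median 1.23), and 10 of 12 spiral ganglion neuron genes did (median 0.67), with neuronal sums of 411 and 761 CPM for wild-type, against 883 and 1057 CPM for cello. In the sums of both lists wild-type replicate 2 lay nearer to cello replicate 1 than to wild-type replicate 1. Macrophage genes had a median of -0.03 and red blood cell genes one of 0.08. In limma 0 genes of the lists in this paragraph passed. DESeq2 called 3 melanocyte and stria, 2 epithelial, 2 outer hair cell and 1 supporting cell genes lower, and 2 Schwann cell genes higher. Over all genes with an adjusted p, DESeq2 called 0.589% lower and 0.847% higher. Expressed as CPM, every gene also depends on how much other RNA a library holds, and rescaling by TMM left the median of the transduction genes at -0.42 and all 9 below 0.

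Among the other genes of the hair bundle, those of the actin core stood lower in a similar measure. Of 11 stereocilia core genes tested, 11 were below 0, 10 with both cello libraries under both wild-type libraries (beside 28.7% of all genes tested), and their median was -0.46. Here 0 passed in limma, 8 were lower at an unadjusted p under 0.05 (beside 6.47% of all genes tested), and 2 passed in DESeq2. These were Lmod3, an actin nucleator gene, at 27.1 and 29.9 CPM against 12.3 and 12.6 CPM, and Espnl, the espin-like gene, at 26.6 and 31.6 CPM against 14.8 and 19.4 CPM. The members with the next smallest p, Triobp (-0.33), an actin-bundling gene of the rootlet, and Eps8l2 (-0.37), a gene of stereocilia tips, did not pass in any of the 3 tools. Of 8 ankle link and surface genes, a list that also holds the tectorial membrane gene Tectb, 6 were below 0, with a median of -0.38. In limma 0 passed, and 3 were lower at an unadjusted p under 0.05, beside the same 6.47%. Strc, the stereocilin gene, had the largest difference (-1.23) and passed in DESeq2 (adjusted p = 9.05e-06) but not in limma (0.419). Adgrv1 (-0.78) and Ptprq (-0.39), which form ankle links and shaft connectors, and Vezt (0.14) did not pass.

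The 14 further genes known to act beside the channel or the tip link had a median near that of all genes. Of the 12 tested, 8 were below 0 and 4 above, with a median of -0.06, and 0 passed in limma, edgeR or DESeq2. At an unadjusted p under 0.05 by limma 1 of them was lower, beside 6.47% of all genes tested. This was Gipc3, a PDZ domain gene, at 5.41 and 6.50 CPM for wild-type, against 3.32 and 3.94 CPM for cello. Tprn (-0.24), the taperin gene of the stereocilia base, Pkhd1l1 (-0.52), a gene of the bundle surface coat, and Loxhd1 (-0.37) had the next smallest p. Clrn2 and Cib3, the closest relative of Cib2, were below the level filter, with Cib3 at 0.302 and 0.712 CPM for wild-type, against 0.212 and 0.421 CPM for cello.

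The paralogues of the channel genes showed no common direction. Of 10 tested 5 were below and 5 above 0, with a median of 0.01, and 0 passed in any of the 3 tools. At an unadjusted p under 0.05 in limma, 1 was lower (Cib1) and 1 higher (Lhfpl3), beside 6.47% and 4.42% of all genes tested. Cib1 (-0.27) and Lhfpl1 (-0.49) stood below 0. Lhfpl3 and Lhfpl4, relatives of Lhfpl5, stood the other way, Lhfpl3 at 2.84 and 10.7 CPM for wild-type, against 17.3 and 18.3 CPM for cello. Lhfpl4 stood at 5.99 and 14.7 CPM and at 16.8 and 19.9 CPM. In both the wild-type libraries differed widely, with replicate 1 the lowest, as in the Schwann cell genes. Tmc5, Tmc8 and Cib4 were under the level filter.

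Harmonin also serves a related adhesion complex on the microvilli of gut and kidney cells, built from Cdhr2, Cdhr5, Anks4b and Myo7b. None of these 4 genes reached the level filter. Cdhr2 stood at 0.0471 to 0.232 CPM, Anks4b at 0.0201 to 0.126 CPM and Myo7b at 0.214 to 0.565 CPM over the 4 libraries, while Cdhr5 had a single read in each of 2 libraries. Of the partners of harmonin in the 2 complexes, only those of the hair bundle were measured above 1 CPM in at least 2 libraries.

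**Figure D4:**
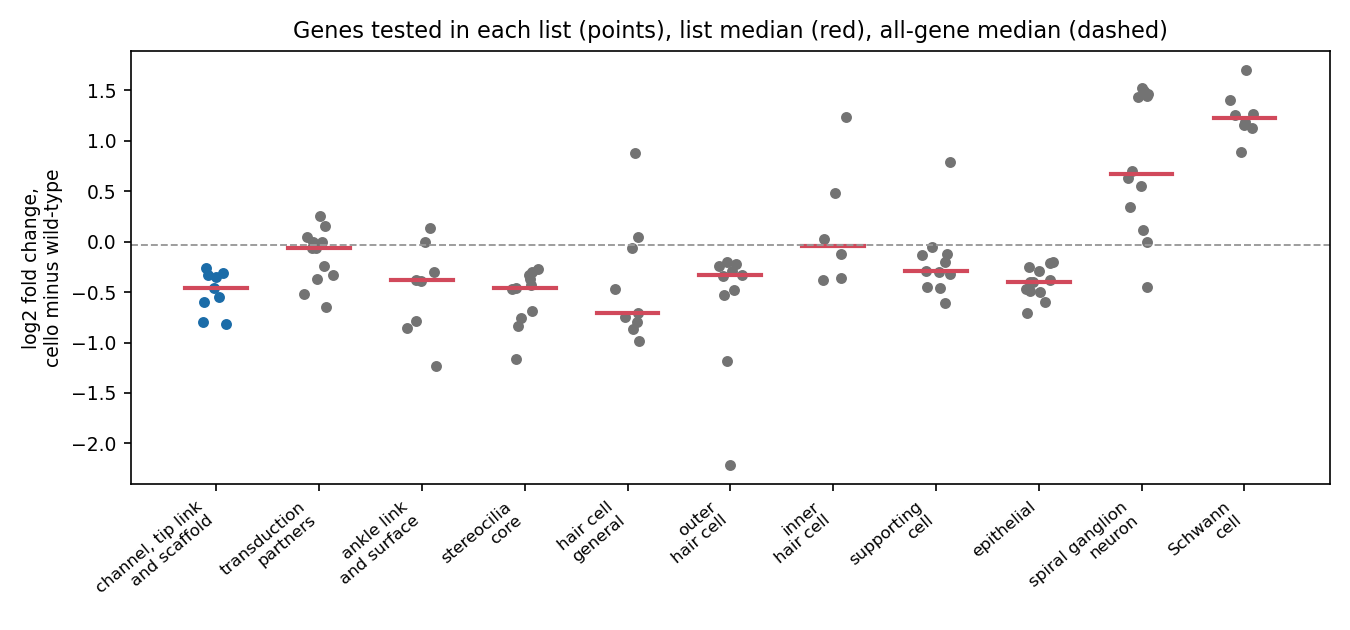
Log2 fold change, cello minus wild-type, of every gene tested in 11 lists (points), with the median of each list (red bar) and of all genes tested (dashed line, -0.03); the channel, tip link and scaffold genes are in blue. The blue points lie between -0.82 and -0.26, beside the stereocilia core (median -0.46) and epithelial genes (median -0.40), while Schwann cell genes lie above 0.

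The genes whose profile over the 4 libraries was most like that of Tmc1 were ranked by Euclidean distance between centred log2(CPM + 0.5) values, among 13573 tested genes. These leave out the 9 transduction genes, pseudogenes and genes with a predicted-gene, clone or Rik name or with none. The 5 nearest were Crhr1, a receptor gene for corticotropin-releasing hormone, Snorc, Sfn, Slc47a2 and Pou4f3, at distances of 0.04 to 0.13. Crhr1 stood at 14.1 and 14.1 CPM in the wild-type libraries, against 8.01 and 7.80 CPM in cello. Snorc was a low gene, at 1.27 and 1.16 CPM for wild-type, against 0.471 and 0.442 CPM for cello. Its difference is understated by the pseudocount at this level, and its place among the 5 rested on that. Of the transduction genes themselves Tomt lay nearest to Tmc1 (0.29), then Cib2 (0.35), Pcdh15 (0.37) and Lhfpl5 (0.40), and Ush1c furthest (0.62). With 4 libraries many genes share such a profile, and the distances carry no test.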

How the data were processed

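RNA was prepared with a TruSeq kit, per the labels' protocols, and TopHat placed the reads on GRCm38 according to the submitters' processing notes. The deposited values are CPM per gene, 1 file per library. Which program counted the reads, with which strand setting and annotation, is not given in the sources used here. The authors' scaling included 5 entries without a gene (27.2% to 30.0% of the alignments), which entered no test. Every CPM was a whole multiple of the value of 1 read (100% of values, tolerance 0.001 of a read), which gave back the whole reads. Replicates differed by more than sampling noise (chi-square per degree of freedom 16.9 in wild-type and 43.9 in cello).

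Of 37239 identifiers, 36504 matched a gene of GENCODE M21, which is on the same build. Genes that reached 1 CPM in 2 or more libraries were fitted as log2(CPM + 0.5) by genotype, two-sided, with a variance trend, using limma 3.58.1 under R 4.3.3. The alternatives, including edgeR 4.0.16 (quasi-likelihood) and DESeq2 1.42.0 on the recovered reads, are given in the closing section. DESeq2 left 1142 adjusted p undefined, those of Tomt and Ush1g included. The tests were checked on simulated data, where the share of false calls was above the nominal rate in all 3 tools and highest in DESeq2. The members, lists, tests and alternatives were chosen with earlier results of these data known. All members and 8 marks of hair cells and epithelium are named, with up to 4 genes of the smallest p per bundle list and the 5 genes most like Tmc1. Lhfpl3 and Lhfpl4 are named under that rule, and Anapc15 and Als2cl because they overlap a member. Myo15a was not analysed here. Tables and plots used Python 3.11.15, pandas 2.3.3 and matplotlib 3.10.9.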

Additional observations from a re-analysis of the deposited data

How the results depend on the processing

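Over 18 other settings (pseudocounts of 0.1 and 1, no level filter, a mean CPM of at least 5, 5 other scalings, limma without the trend or with robust moderation, the replicate block, edgeR, DESeq2 and each library left out), every transduction gene tested stayed below 0 in all 160 fits, and Tmc1 in DESeq2 was the only one to pass (adjusted p = 0.00157, up to 0.931 over the settings). Over all genes the count of 0 called in limma became 80 lower and 115 higher in DESeq2, and 27 lower and 220 higher relative to Myo7a and Myo6. It stayed at 0 lower with each library left out, and the count of higher genes ran from 0 to 90, the 90 being without wild-type replicate 2. At an unadjusted p under 0.05 limma gave 952 lower and 651 higher genes, and 663 and 862 after TMM rescaling. The median of the members tested was -0.40 with no level filter, which adds Tmc2, and -0.53 to -0.42 with each library left out. The replicate block left it at -0.45 and changed no call. Deviations of the libraries numbered 1 correlated at 0.13 over genes. The labels do not tie equal numbers to a litter, so they name libraries and do not pair them. The ratio of Tomt to Tmc1 moved from 0.20 to 0.04 in edgeR and DESeq2, which use no pseudocount of 0.5. The levels of Tmc2, Tomt and Ush1g are limited by their low read numbers.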
